A study of Mus musculus with 18 samples.

Results

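The MHC class II antigen presentation pathway of B cells was followed through 10 genes, taken by symbol from the 23420 that each library listed. The rule that names them uses no measured value, but they were picked with earlier results of these data known. H2-Aa, H2-Ab1 and H2-Eb1 encode chains of the class II molecules that display peptides on the cell surface, Cd74 encodes the invariant chain, and Ciita encodes the transcriptional coactivator of the pathway. H2-DMa, H2-DMb1 and H2-DMb2 encode chains of DM, which loads peptides, and H2-Oa and H2-Ob encode the chains of DO, which inhibits DM. Each of the 10 genes was measured in every library, and the lowest value of any of them was 3.30 log2 CPM, for H2-DMb1 in a Tlr9het library with CpG.

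RNA was sequenced from splenic B cells that had been bead purified from MRL/lpr mice, an autoimmune strain whose Fas lpr mutation all groups carried. The 18 libraries formed 6 groups of 3, from mice of 5 to 7 weeks. In the first arm, Tlr9+/- Tlr7-/- B cells (Tlr9het) and Tlr997 Tlr7-/- B cells (Tlr997), all labelled female, were left unstimulated or given 10 µg/ml of the TLR9 agonist CpG for 4 h. In the second arm, B cells of male Tlr779 Tlr9-/- mice (Tlr779) were left unstimulated or given 5 µg/ml of the TLR7 agonist CL097 for 4 h. TLR997 is TLR9 with the signaling TIR domain of TLR7, inserted at the Tlr9 locus, and TLR779 is TLR7 with the TIR domain of TLR9. No gate separated follicular, marginal zone and other B cells. The labels conflict on the control of the first arm: the titles give Tlr9+/-, which was followed, and the treatment protocol gives Tlr9-/-. Arm, sex, genotype and stimulus changed together between the arms and cannot be told apart, so no test was made between them. The protocol names 3 mice per genotype, but no label ties a library to a mouse, and the p-values measure the spread between these libraries. Cd74 is an exception, described below.

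Values are log2 CPM, the log2 of reads of a gene scaled to a fixed library total, as the authors' normalization left them. No counts were given, so the depth of each library is unknown. A gene was called changed in a comparison when its limma p, adjusted by Benjamini-Hochberg over all tested genes, was under 0.05 and its absolute log2 fold change over 0.5. The 5 B cell markers Ms4a1, Cd79a, Cd79b, Cd22 and Pax5 were present in all groups, with summed levels of 4869 to 6552 CPM in unstimulated libraries. Replicate 3 of unstimulated Tlr997 stood apart, with the ribosomal transcript Rn45s at 13.89 log2 CPM and highest of all its genes, against 10.13 to 12.23 in the other libraries.

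Class II molecules take up peptides of endocytosed antigen in endosomes and show them to CD4+ T cells. The invariant chain holds the peptide groove closed until it is degraded to the fragment CLIP, which DM removes and for which DM exchanges antigenic peptide, while DO restrains DM and is made mainly by B cells. Transcription of these genes depends on CIITA, which does not bind DNA itself but is recruited by RFX, CREB and NF-Y factors at the S, X and Y boxes of class II promoters. Mature B cells express the pathway constitutively, and it is shut off in plasma cells.

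In the GRCm38 annotation of RefSeq, 8 of the 10 genes lay on chromosome 17 within 224.3 kb, from 34092379 (H2-Oa) to 34316674 (H2-Eb1). Ciita lay on chromosome 16 at 10480014 to 10531064. RefSeq promoter windows of 300 bases, from 250 before to 50 after an annotated start, were at hand for 7 of the 10 genes. There were 2 for H2-DMa and none for H2-Ab1, Cd74 and Ciita. The windows of H2-DMa and H2-DMb2 lay inside the gene spans, which began at 34119693 and 34143229. The letters of the Y box, GATTGG, and an X box stretch, AACNNATG, were searched on both strands. The X stretch was chosen after these promoters had been read, so its matches are a description. The Y motif was in 16.1% of all 32851 windows and the X motif in 8.86%. An X motif whose start lay 25 to 40 bases before that of a Y motif was in 23 windows (0.0700%), 4 of them of members, and one of H2-Eb2, a further class II chain. The members were H2-Eb1, H2-DMb1, H2-DMb2 and H2-Ob, with 29, 30, 30 and 27 bases between the motif starts.

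The following stretches of 70 bases show where these motifs stood in the C57BL/6 reference, with the motifs in capitals. They are shown because 6 genes with responses of different size share the same Y letters before an annotated start. The X letters are in 4 of them, and a stretch without these letters may still hold an X box of another spelling. A Y motif was also in 1 of the 2 windows of H2-DMa, whose stretch is not shown.
H2-Aa (GRCm38.p6, chr17:34287853-34287922, minus strand): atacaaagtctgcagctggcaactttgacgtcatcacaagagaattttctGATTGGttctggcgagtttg
H2-Eb1 (chr17:34305757-34305826, plus strand): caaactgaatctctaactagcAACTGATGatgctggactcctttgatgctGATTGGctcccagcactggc
H2-DMb1 (chr17:34153079-34153148, plus strand): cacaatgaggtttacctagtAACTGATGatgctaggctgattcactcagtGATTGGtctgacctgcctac
H2-DMb2 (chr17:34145108-34145177, plus strand): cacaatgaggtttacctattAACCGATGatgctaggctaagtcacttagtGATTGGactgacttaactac
H2-Oa (chr17:34092285-34092354, plus strand): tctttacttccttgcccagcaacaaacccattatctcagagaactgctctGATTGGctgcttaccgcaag
H2-Ob (chr17:34238797-34238866, plus strand): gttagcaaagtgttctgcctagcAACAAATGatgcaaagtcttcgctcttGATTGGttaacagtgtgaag

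The stretches of H2-DMb1 and H2-DMb2, neighboring genes that both encode a DM beta chain, look alike over their whole length. In their transcripts (GENCODE vM21), 254 of the 1604 stretches of 75 bases in H2-DMb1 (15.8%) were also in H2-DMb2. Reads from these could be divided between both genes or left out by the authors' counting, and the values of the pair are uncertain to that extent. For the other 8 genes, 0 such stretches were shared with another gene. MRL mice carry the k haplotype of the H2 locus and the reference the b haplotype. The effect of that mismatch on the counts was not tested.

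In unstimulated cells the invariant chain stood far above the chains it accompanies. Levels of different genes are compared here per kb of exon, in log2 CPM per kb. In unstimulated Tlr9het, Cd74 was at 12.25 ± 0.12 (SD, n = 3), H2-Eb1 at 9.96 ± 0.23, H2-Aa at 9.60 ± 0.11 and H2-Ab1 at 9.31 ± 0.15. The peptide-loading genes were lower, with H2-DMb2 at 7.43 ± 0.25, H2-Ob at 6.99 ± 0.12, H2-Oa at 6.32 ± 0.21, H2-DMa at 5.89 ± 0.23 and H2-DMb1 at 5.22 ± 0.19. Ciita was the lowest, at 4.74 ± 0.28. This order was the same in unstimulated Tlr997 and Tlr779, and no gene's libraries overlapped those of the next gene in any of the 3 groups. The smallest gap was 0.29, between H2-Aa and H2-Ab1 in Tlr9het. The order depends on the lengths, which join all annotated exons of a gene and whose error is not in these SDs. Without lengths several places were reversed. In log2 CPM of unstimulated Tlr9het, H2-Aa (11.52) was above H2-Eb1 (10.92) and H2-Ob (9.42) above H2-DMb2 (8.24). Ciita (7.99) was above H2-DMa (7.67), H2-Oa (6.82) and H2-DMb1 (5.97).

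With stimulation the order by these lengths changed among the lower genes and between H2-Aa and H2-Ab1. With CpG, H2-Ab1 moved above H2-Aa in both genotypes, by 0.28 log2 CPM per kb in Tlr9het with no overlap and by 0.32 in Tlr997 with overlap. Ciita moved from the last to the 7th place in both. In Tlr997 with CpG its libraries overlapped those of H2-Oa, the next gene, and in Tlr9het they did not. With CL097, H2-Ob moved above H2-DMb2 by 0.42, and Ciita and H2-DMb1 at the end of the order overlapped.

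**Figure D1:**
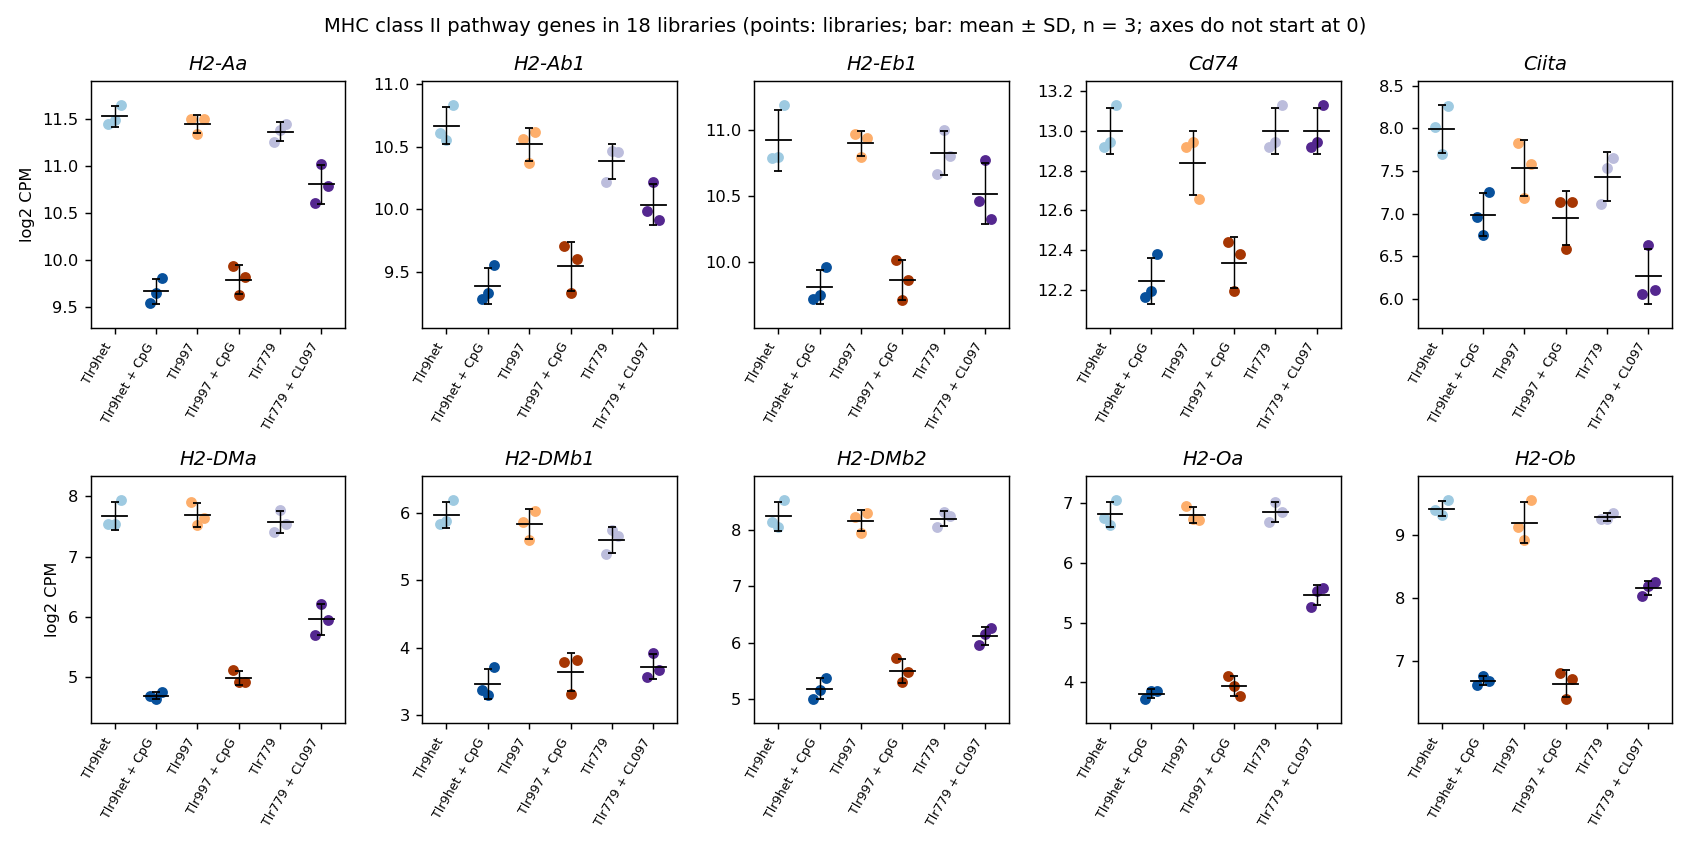
Log2 CPM of each of the 10 class II pathway genes in the 18 libraries by group, with points for libraries and bars for the mean ± SD of 3. Axes differ between genes and do not start at 0. The CpG libraries (dark blue and dark orange) lie below the unstimulated ones of their genotype for all 10 genes, while with CL097 (dark purple) Cd74 keeps the values of unstimulated Tlr779.

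The first question was what the TLR9 agonist did to the pathway in each genotype. All 10 genes were lower with CpG in Tlr9het and all 10 were lower in Tlr997, and 0 were higher, where 28.2% and 26.0% of 11494 tested genes were called lower and 29.7% and 29.6% higher. The library values did not overlap for any of the 10 genes in either genotype, which held in the lower direction for 38.5% and 33.3% of tested genes. The median log2 fold change of the 10 was -2.18 in Tlr9het and -1.92 in Tlr997, against 0.04 and 0.07 over all tested genes. By role, the log2 fold changes lay between -3.05 and -2.19 for the DM and DO chains, between -1.85 and -0.97 for the 3 class II chains and between -1.01 and -0.50 for Ciita and Cd74. The ranges of the last pair of sets overlap, and differences between genes were not tested. In bulk samples, fewer cells of a type and less RNA per cell cannot be told apart.

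H2-Aa, the alpha chain of I-A, was at 11.44, 11.48 and 11.64 log2 CPM in the 3 unstimulated Tlr9het libraries and at 9.54, 9.65 and 9.81 with CpG. In Tlr997 it was at 11.50, 11.34 and 11.50 without and at 9.94, 9.63 and 9.82 with CpG. The unstimulated libraries of both genotypes thus shared one range and the CpG libraries another, more than 1 log2 unit lower. The log2 fold change was -1.85 (SE 0.09, limma adjusted p 5.88e-10) in Tlr9het and -1.65 (SE 0.09, limma adjusted p 2.30e-09) in Tlr997. Among all genes of a library, H2-Aa ranked between 8th and 13th from the top before and between 96th and 165th after CpG. H2-Ab1, the beta chain of I-A, fell less, by 1.28 in Tlr9het (SE 0.11, limma adjusted p 1.53e-07) and by 0.97 in Tlr997 (SE 0.11, limma adjusted p 2.69e-06). For H2-Eb1, the beta chain of I-E, the log2 fold changes were -1.11 (SE 0.11, limma adjusted p 7.80e-07) and -1.03 (SE 0.11, limma adjusted p 1.73e-06).

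DM is a dimer of an alpha chain from H2-DMa and a beta chain from either H2-DMb gene. H2-DMa was at 7.54, 7.54 and 7.94 log2 CPM in unstimulated Tlr9het and at 4.69, 4.64 and 4.75 with CpG. In Tlr997 it was at 7.90, 7.52 and 7.63 without and at 5.12, 4.93 and 4.92 with CpG. Its log2 fold changes of -2.98 (SE 0.12, limma adjusted p 7.24e-11) and -2.69 (SE 0.12, limma adjusted p 2.37e-10) were the 231st and 299th lowest of the 11494 tested genes. H2-DMb2 fell by 3.05 in Tlr9het (SE 0.14, limma adjusted p 3.68e-10), the largest decrease of the 10 genes in that genotype, and by 2.66 in Tlr997 (SE 0.14, limma adjusted p 1.74e-09). H2-DMb1, the less abundant beta chain, fell by 2.51 and 2.19 (SE 0.16 each, limma adjusted p 9.98e-09 and 4.67e-08). The excess of H2-DMb2 over H2-DMb1 within a library, 2.27 ± 0.09 log2 units in unstimulated and 1.72 ± 0.12 in CpG-treated Tlr9het (SD, n = 3 each), narrowed with the stimulus, although the shared stretches of sequence limit the separation of the pair.

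Both chains of DO fell as well. H2-Ob was at 9.39, 9.32 and 9.56 log2 CPM in unstimulated Tlr9het and at 6.62, 6.77 and 6.68 with CpG. In Tlr997 it went from 9.13, 8.92 and 9.56 to 6.82, 6.40 and 6.72. Its CpG libraries of both genotypes lay in one range, at least 2 log2 units below every unstimulated library. The log2 fold changes were -2.73 (SE 0.14, limma adjusted p 8.74e-10) and -2.56 (SE 0.14, limma adjusted p 2.11e-09). H2-Oa, at 6.64 to 7.06 in the unstimulated libraries of both genotypes and at 3.72 to 4.11 in those with CpG, fell by 3.01 in Tlr9het (SE 0.12, limma adjusted p 6.60e-11) and by 2.87 in Tlr997 (SE 0.12, limma adjusted p 1.32e-10).

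The balance between the presenting chains and the loading genes therefore shifted within each library. The mean log2 CPM of H2-Aa, H2-Ab1 and H2-Eb1 minus the mean of the 5 DM and DO genes was 3.41 ± 0.04 in unstimulated Tlr9het and 4.86 ± 0.04 with CpG (SD, n = 3 each). In Tlr997 it was 3.42 ± 0.06 and 4.79 ± 0.03, and in Tlr779 it was 3.35 ± 0.02 without and 4.57 ± 0.15 with CL097 (SD, n = 3 each). The stimulated libraries lay above the unstimulated ones in each of the 3 pairs of groups, with no overlap. With 3 libraries against 3 no exact permutation test can give a p under 0.10, and none was run.

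Ciita was at 8.01, 7.70 and 8.27 log2 CPM in unstimulated Tlr9het and at 6.96, 6.74 and 7.25 with CpG. In Tlr997 it was at 7.83, 7.18 and 7.58 without and at 7.14, 6.58 and 7.13 with CpG. In Tlr997 the lowest unstimulated library (7.18) was barely above the highest with CpG (7.14). The log2 fold change was -1.01 (SE 0.20, limma adjusted p 4.02e-04) in Tlr9het and -0.58 (SE 0.20, limma adjusted p 0.0172) in Tlr997. The second call did not hold without replicate 1 of unstimulated Tlr997 (-0.43, limma adjusted p 0.0767) or without replicate 2 of Tlr997 with CpG (-0.40, limma adjusted p 0.0913). Its fold changes were smaller than those of each DM and DO gene in both genotypes, and its SE was the largest of the 10.

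The gene of the invariant chain lies apart from the other members, on chromosome 18 at 60803849 to 60812652 (GRCm38). Cd74 was at 12.92, 12.95 and 13.13 log2 CPM in unstimulated Tlr9het and at 12.16, 12.19 and 12.38 with CpG. In Tlr997 it was at 12.92, 12.95 and 12.66 without and at 12.44, 12.19 and 12.38 with CpG. The log2 fold changes were -0.76 (SE 0.10, limma adjusted p 1.28e-05) and -0.50 (SE 0.10, limma adjusted p 5.06e-04). These values moved in steps. Cd74 ranked 2nd of all genes in each unstimulated library except replicate 3 of unstimulated Tlr997, where Rn45s was 1st and Cd74 3rd, and it ranked 4th with CpG except in replicate 1 of Tlr997, where it was 3rd. Quantile normalization, which the authors applied, gives genes of equal rank an equal value in every library. Set against the unstimulated Tlr779 library of the same replicate number, Cd74 differed by 0.00 at rank 2, by -0.48 at rank 3 and by -0.76 at rank 4. The size of a change in Cd74 between ranks cannot be read more finely than these steps. In Tlr9het its differences between libraries of the same number were -0.756, -0.755 and -0.755, so the spread within groups was a shift between replicate numbers. The SE and p of Cd74 come from such shifts and from ranks. They do not measure the spread of its RNA between libraries. In Tlr997 its call was lost, at -0.46, -0.45 and -0.43, without replicate 1 or 2 of unstimulated Tlr997 or replicate 2 of Tlr997 with CpG.

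**Figure D2:**
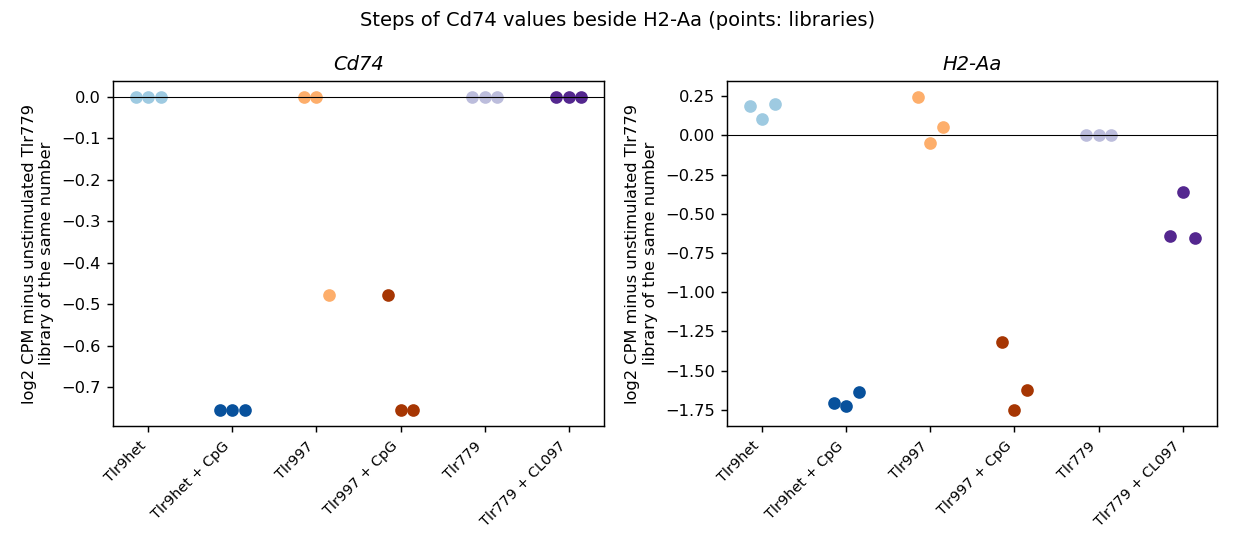
Log2 CPM of Cd74 (left) and H2-Aa (right) in each library minus that of the unstimulated Tlr779 library with the same replicate number, by group. Cd74 takes values near 0.00, -0.48 and -0.76, those of ranks 2, 3 and 4, while the values of H2-Aa are spread.

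In the second arm the question was what the TLR7 agonist did in Tlr779 cells. No library of this arm had an unaltered TLR7, so the part of the TIR domain in the response was not tested. With CL097, 7 of the 10 genes were lower and 0 higher, where 23.6% of 11082 tested genes were called lower and 22.7% higher. The same 7 had no overlap between groups, which held in the lower direction for 34.9% of tested genes. The 5 DM and DO genes, Ciita and H2-Aa fell, while H2-Ab1, H2-Eb1 and Cd74 did not pass. The median of the 10 was -1.15, against -0.02 over all tested genes.

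Among the loading genes, H2-DMa was at 7.41, 7.77 and 7.54 log2 CPM without and at 5.70, 6.22 and 5.95 with CL097. Every stimulated library was thus more than 1 log2 unit below every unstimulated one. Its log2 fold change was -1.62 (SE 0.14, limma adjusted p 3.75e-05). H2-DMb2 fell most, by 2.07 (SE 0.10, limma adjusted p 4.52e-06), followed by H2-DMb1, by 1.88 (SE 0.14, limma adjusted p 1.61e-05). The DO chains also fell, H2-Oa by 1.40 (SE 0.12, limma adjusted p 2.91e-05) and H2-Ob by 1.13 (SE 0.08, limma adjusted p 1.16e-05).

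Ciita fell from 7.11, 7.53 and 7.65 log2 CPM to 6.05, 6.64 and 6.10, and its log2 fold change was -1.17 (SE 0.19, limma adjusted p 9.01e-04). Between libraries of the same replicate number it fell by between 0.90 and 1.55. H2-Aa was at 11.25, 11.38 and 11.45 without and at 10.61, 11.02 and 10.79 with CL097. Its change of -0.55 (SE 0.11, limma adjusted p 0.00349) lay close to the fold threshold, and without replicate 1 of the CL097 group it was -0.46 and not called.

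H2-Ab1 was at 10.22, 10.47 and 10.46 without and at 9.98, 10.22 and 9.91 with CL097. Its log2 fold change of -0.34 (95% interval -0.59 to -0.10, limma adjusted p 0.0225) missed the fold threshold and passed that on p. For H2-Eb1 the change was -0.30 (95% interval -0.61 to 0.00, limma adjusted p 0.0771). Cd74 had the same 3 values with and without CL097, since it ranked 2nd in all 6 libraries, and its change of 0.00 (95% interval -0.25 to 0.25) does not show that its RNA was unaltered. That interval comes from the shifts between replicate numbers and not from a spread of Cd74 RNA between libraries.

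**Figure D3:**
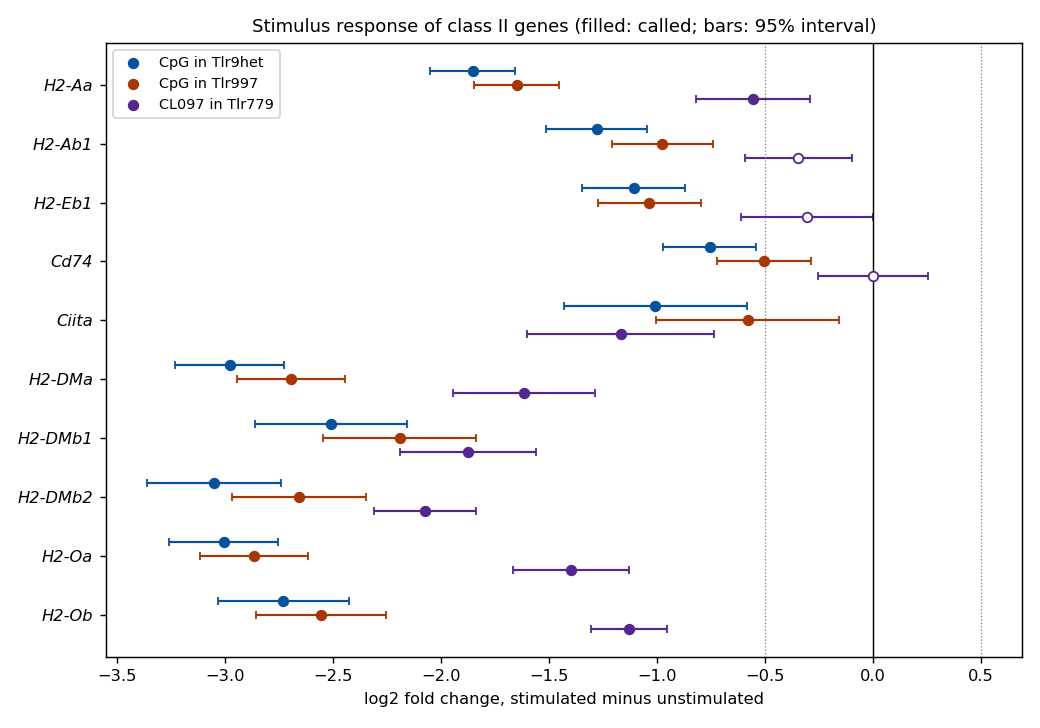
Log2 fold change of each class II pathway gene with its 95% interval for CpG in Tlr9het, CpG in Tlr997 and CL097 in Tlr779, stimulated minus unstimulated. Filled points were called, open points were not, and dotted lines mark the fold threshold of 0.5. The DM and DO genes lie between -1.13 and -3.05, and the open points are H2-Ab1, H2-Eb1 and Cd74 with CL097.

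The study exchanged the TIR domain, so the genotypes were compared without and with CpG and by the difference of their CpG responses. In unstimulated cells, 0 of the 10 genes were called between Tlr997 and Tlr9het, where 0.0174% of tested genes were called in either direction. By limma, 1237 of all tested genes had an unadjusted p under 0.05, and of the 10 this was true of Ciita (-0.46, 95% interval -0.89 to -0.04, limma adjusted p 0.428). The other 9 differed by between -0.22 and 0.01.

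With CpG, 0 of the 10 were called, where 2.72% of tested genes were, and 2187 of all tested genes had an unadjusted p under 0.05 by limma. H2-DMa and H2-DMb2 were the members with an unadjusted p under 0.05. H2-DMa was higher in each Tlr997 library with CpG (4.92 to 5.12 log2 CPM) than in each Tlr9het library with CpG (4.64 to 4.75), by 0.30 (95% interval 0.04 to 0.55, limma adjusted p 0.180). It was the only member without overlap in this direction, which held for 14.6% of tested genes. H2-DMb2 was at 5.72, 5.30 and 5.47 in Tlr997 and at 5.01, 5.16 and 5.38 in Tlr9het with CpG, a difference of 0.32 (95% interval 0.01 to 0.62, limma adjusted p 0.252) with overlapping libraries. Ciita differed by -0.03 (95% interval -0.46 to 0.39).

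The difference of the CpG responses, tested as an interaction, was called for 0 of the 10 genes, where 1.54% of tested genes were called, and 1839 of all tested genes but 0 of the 10 had an unadjusted p under 0.05 by limma. All 10 estimates were above 0, that is, decreases were smaller in Tlr997, from 0.07 for H2-Eb1 to 0.43 for Ciita (95% interval -0.17 to 1.03). Without replicate 3 of unstimulated Tlr9het that of H2-Eb1 was -0.060. The 10 share the same 12 libraries and are not independent, and the median of 0.27 stands against 0.01 over all tested genes. Many of those genes rose with CpG, and the share of estimates above 0 among genes lowered by CpG was not counted. The 5 B cell markers had a median of 0.585, from -0.071 to 1.16. Between genotypes the median of the 10 was -0.108 in unstimulated cells and 0.128 with CpG. For the difference of responses, the upper bounds of the 95% intervals ran from 0.41 for H2-Eb1 to 1.03 for Ciita. Differences up to these sizes were thus not resolved by 3 libraries per group.

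**Figure D4:**
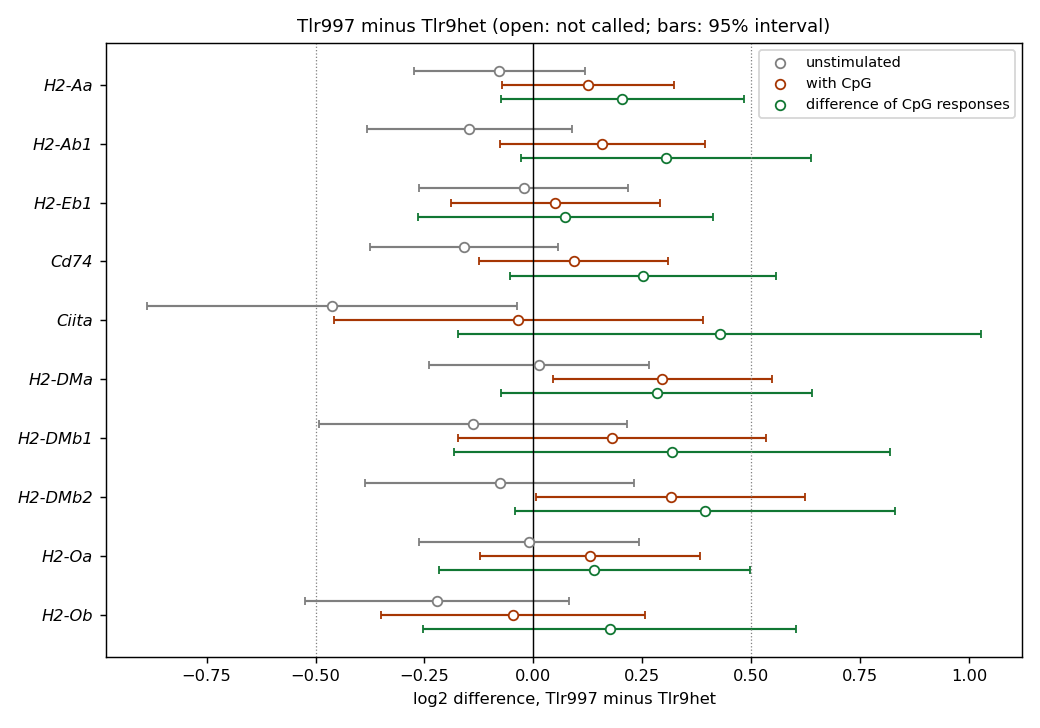
Log2 difference of each class II pathway gene between Tlr997 and Tlr9het in unstimulated cells (gray) and with CpG (orange), and the difference of their CpG responses (green), with 95% intervals. All points are open because none was called. Green points lie between 0.07 and 0.43, and the intervals that do not include 0 are those of Ciita in gray and of H2-DMa and H2-DMb2 in orange.

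Beside the 10, 18 further genes of the pathway were examined as a list. With CpG, 2 were higher and 10 lower in Tlr9het (median -0.61), and 1 was higher and 10 lower in Tlr997 (median -0.57). With CL097, 1 was higher and 7 lower (median -0.27). Over all tested genes the shares called higher were 29.7%, 29.6% and 22.7%, and those called lower 28.2%, 26.0% and 23.6%. Of further class II chains, H2-Ea-ps, the I-E alpha chain, was at 10.31 ± 0.15 in unstimulated and 8.15 ± 0.22 log2 CPM in CpG-treated Tlr9het (SD, n = 3 each). H2-Ea-ps is a pseudogene in the C57BL/6 reference, while strains of the k haplotype express the chain. Its log2 fold change was -2.16 (SE 0.13, limma adjusted p 6.54e-09), and H2-Eb2 fell by 2.86 (SE 0.13, limma adjusted p 2.61e-10).

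Among genes that act on the proteins, March1, a ubiquitin ligase that sends class II molecules to degradation, fell furthest. It was at 7.58 ± 0.05 log2 CPM in unstimulated and 3.61 ± 0.13 in CpG-treated Tlr9het, and at 7.64 ± 0.20 and 3.04 ± 0.36 in Tlr997 (SD, n = 3 each). The log2 fold changes were -3.97 (SE 0.15, limma adjusted p 5.60e-11) and -4.59 (SE 0.15, limma adjusted p 2.41e-11), and with CL097 it fell by 2.82 (SE 0.12, limma adjusted p 2.92e-06). With CpG, March1 was the 1 gene of the 18 called between the genotypes, where 2.72% of tested genes were called. It was lower in Tlr997 by 0.57 (SE 0.15, limma adjusted p 0.0432), while the difference of the responses was not called (-0.62, limma adjusted p 0.169).

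Endosomal enzymes fell less. Ifi30, a reductase of disulfide bonds in endocytosed antigen, fell by 2.17, 2.02 and 1.14 with CpG in Tlr9het, with CpG in Tlr997 and with CL097. Ctsb and Ctsd, which encode cathepsins, also fell in all 3 comparisons, by between 0.99 and 1.33. Ctss, the cathepsin that completes the cleavage of the invariant chain in B cells, fell by 0.83 in Tlr9het and by 0.54 in Tlr997, and its change with CL097 of -0.19 was not called. Lgmn and Sppl2a were lower with CpG in both genotypes, by between 0.56 and 0.78, and were not called with CL097, at 0.46 and -0.20. Ctsl and March8 were not called in any of the 3 comparisons.

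The factors that bind class II promoters did not move as a group. Rfx5 rose by 0.65 with CpG in Tlr9het and by 0.63 with CL097, and at 0.41 it was not called in Tlr997. Rfxank, another subunit of RFX, fell by 1.01, 0.80 and 0.74. Rfxap, the third subunit, rose by 0.55 and 0.56 with CpG and was at -0.04 with CL097. Nfya, Nfyb, Nfyc and Creb1 were not called in these comparisons, with log2 fold changes between -0.36 and 0.49.

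Of 5 tested regulators that act on the Ciita gene, 2 were higher and 2 lower with CpG in both genotypes, and 2 were higher and 1 lower with CL097. Among all tested genes, 29.7%, 29.6% and 22.7% were called higher and 28.2%, 26.0% and 23.6% lower. Irf4 rose by 1.61, 1.36 and 1.58 and Irf8 by 0.93, 0.58 and 0.64 with CpG in Tlr9het, with CpG in Tlr997 and with CL097. Usf1 fell by 0.94, 0.89 and 0.84. Irf1, which carries the interferon signal to Ciita, fell with CpG by 1.09 and 0.68 and was not called with CL097, at 0.26. Prdm1, the plasma cell factor that represses Ciita, was not called in any comparison, with 0.37, -0.11 and 0.26.

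**Figure D5:**
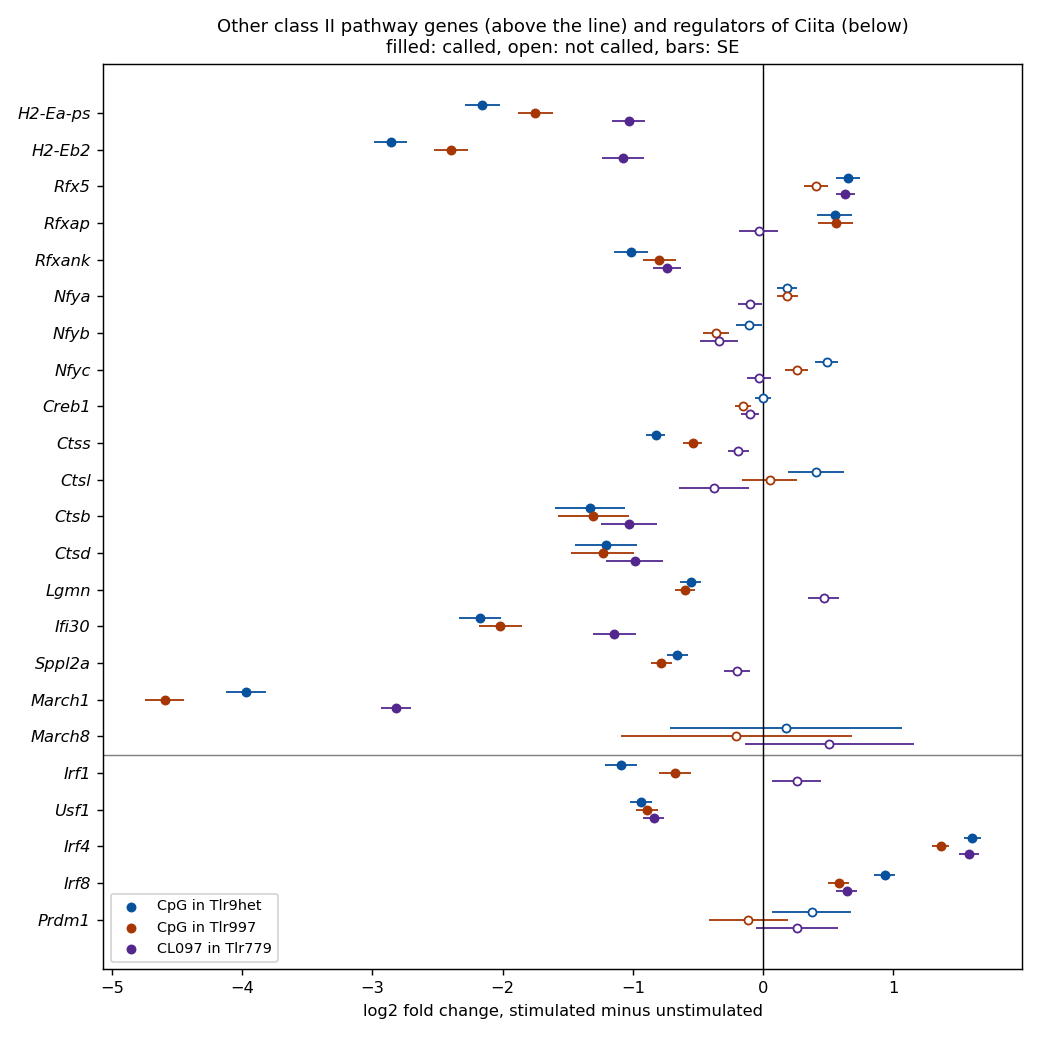
Log2 fold change with its SE for 18 other genes of the class II pathway (above the line) and 5 regulators of Ciita (below), stimulated minus unstimulated, for CpG in Tlr9het, CpG in Tlr997 and CL097 in Tlr779. March1 lies furthest to the left, at -3.97, -4.59 and -2.82, while Irf4 lies furthest to the right, at 1.61, 1.36 and 1.58.

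Other B cell genes moved in the same samples. Of the 5 B cell markers, 4 were lower and 1 higher with CpG in Tlr9het, 3 lower with CpG in Tlr997 and 4 lower with CL097. The shares over all tested genes were 28.2%, 26.0% and 23.6% lower and 29.7%, 29.6% and 22.7% higher. Cd79a fell by 3.27, 3.10 and 1.54 and Cd22 by 3.29, 2.71 and 1.85. The summed level of the 5 was between 1155 and 1211 CPM in Tlr9het with CpG, 2025 and 2482 in Tlr997 with CpG and 1792 and 2481 with CL097. Ms4a1, which encodes CD20, did not follow in Tlr997, where it changed by 0.41 and was not called, and Pax5 was higher in Tlr9het by 0.54. With CpG, Ms4a1, Cd79b and Cd22 were higher in Tlr997 than in Tlr9het, by 1.26, 1.04 and 0.58, where 2.72% of tested genes were called in either direction. Of 5 plasma cell markers, 3 were lower and 1 was higher in each of the 3 stimulus comparisons. Sdc1, which encodes a syndecan, fell by 1.43, 2.02 and 2.49, Igj, the joining chain of secreted antibodies, by 0.73, 0.74 and 0.71, and Xbp1 by 0.52, 0.55 and 0.57. The marker that rose was Irf4, and Prdm1 was not called. The summed level of the 5 plasma cell markers was between 1082 and 1652 CPM without and between 2111 and 2633 CPM with a stimulus. Irf4 made the rise in this sum, while Sdc1, Igj and Xbp1 fell. Its group means were between 627 and 733 CPM without and between 1878 and 2102 CPM with a stimulus. The part of the B cell and plasma cell markers in the class II decreases was not tested.

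Markers of other cells that carry class II were detected. By the paper's methods the purified B cells were not fully pure, and summed marker levels do not measure the share of other cells. The 7 markers of macrophages and monocytes summed to between 128 and 451 CPM in unstimulated and between 94.2 and 217 CPM in stimulated libraries, with Lyz2 the most abundant, at 6.72 ± 0.23 log2 CPM in unstimulated Tlr9het (SD, n = 3). The 7 dendritic cell markers summed to between 30.8 and 44.2 CPM without and between 71.4 and 99.3 CPM with a stimulus. Of the 4 tested, Zbtb46 rose by 1.80, 1.86 and 2.22 with CpG in Tlr9het, with CpG in Tlr997 and with CL097, and its mean level went from between 12.1 and 15.2 CPM to between 51.9 and 55.4 CPM, most of the rise in the sum. Flt3 rose with CL097 by 0.57 and was not called with CpG, at 0.33 and 0.39. Itgax (-0.45, -0.38 and -0.13) and Siglech (-0.49, -0.80 and -0.73) were not called, while Xcr1, Clec9a and Cd209a were too low to be tested. Summed levels reached at most 21.2 CPM for 5 T cell markers, 73.2 for 3 neutrophil markers and 153 for 2 erythroid markers in any library. H2-Aa alone averaged between 2634 and 2950 CPM in the 3 unstimulated groups. The part of these cells in the class II levels was not tested.

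Finally, the genes whose pattern was most like these were named by Pearson's r over the 12 libraries of the first arm. The 9346 candidates were tested genes above a minimum average level and outside the member, pathway and regulator lists. Cell type markers were not excluded. The libraries share 4 group means, so the coefficients are descriptions. For Ciita they were Dexi (r = 0.94), Usp21 (0.93) and BC029214 (0.93), with 0.99, 0.10 and 0.72 over the 6 Tlr779 libraries. Dexi lies on the opposite strand of chromosome 16, at 10530207 to 10543054, and 329 of its 3353 exon bases overlap the 3′ end of Ciita. The kit marked strand, but the setting used in counting was not given in the sources used here, so both genes may share counts. For the mean of H2-Aa, H2-Ab1, H2-Eb1 and Cd74 they were Fmnl3 (r = 1.00), Adrbk1 (0.99) and Rac2 (0.99), with 0.90, 0.86 and 0.96 over the Tlr779 libraries.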

How the data were processed

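RNA-seq of bead-purified splenic B cells gave 1 file per library. Per the labels and the study's methods, the authors trimmed reads with Trim Galore 0.6.5 (FastQC 0.11.7), aligned them to mm10 with STAR 2.6.1a, counted them per gene with featureCounts (Subread 2.0.1) and applied quantile normalization with limma's voom. The deposited values were log2 CPM of 23420 gene symbols with 3 decimals. They carry voom's offset, so changes of low genes are understated, and the most frequent low value was -5.05. Summed CPM came to between 991992 and 1004412 per library. Of 6209 genes under -4 log2 CPM in all 18 libraries, 6008 had 1 value for all libraries of each replicate number. A gene with 1 value in every library, such as Hba-a1 at -5.05, passes this check too. The count alone therefore cannot show an offset per number. Values at an equal rank did differ by number. In unstimulated Tlr9het, Cd74 (rank 2) was at 12.92, 12.95 and 13.13, and Eef1a1 (rank 1) at 13.76, 13.76 and 13.92. The step behind these shifts is not known, and the main tests do not account for them.

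The log2 values were fitted with limma 3.58.1 (R 4.3.3) with a variance trend, a mean per group and Benjamini-Hochberg adjustment, two-sided. The first arm's 12 libraries formed 1 model and the 6 Tlr779 libraries another. Genes over 0 log2 CPM in at least 3 fitted libraries were tested, 11494 and 11082 in number. The scripts were tested on simulated data. The genes, the further pathway genes, the regulators (Spi1 not analysed here, some list genes not reported here) and the markers were chosen with earlier results of these data known. All 10 genes are named, the list genes by counts with any of them named, and the 3 genes most alike by Pearson's r.

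Whether replicate numbers pair libraries was checked by correlating the deviations from group means between unstimulated and stimulated libraries of one number. The correlation was 0.51, 0.29 and 0.51 in Tlr9het, 0.25, 0.49 and 0.33 in Tlr779 and 0.37, 0.083 and 0.025 in Tlr997. Shifts by number, as in Cd74 and Eef1a1, could raise these values, so they cannot show that libraries of a number share a mouse. The main fits used no pairs. Alternatives were no filter, other fold thresholds, equal library medians, array quality weights, replicate blocks, other sets of libraries and leaving out each library. Gene positions and promoters came from RefSeq (GRCm38.p6). Exon lengths, the exon overlap of Ciita and Dexi and the shared stretches came from GENCODE vM21.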

Additional observations from a re-analysis of the deposited data

How the results depend on the processing

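With each library left out in turn, the genes called in all numbered 6416 to 6867 for CpG in Tlr9het, 6178 to 6473 for CpG in Tlr997, 4700 to 5088 for CL097, 2 to 4 between unstimulated genotypes, 187 to 410 between genotypes with CpG and 87 to 295 for the difference of responses. Of the 10 genes, the numbers called lower were 10 for CpG in Tlr9het, 8 to 10 for CpG in Tlr997 and 6 to 7 for CL097, and 0 elsewhere. The count of 187 came without replicate 1 of Tlr9het with CpG, that of 87 without replicate 1 of unstimulated Tlr9het and that of 295 without replicate 3 of unstimulated Tlr997. With a fold threshold of 1, 4060, 3768, 2582, 74 and 46 genes were called for both CpG responses, CL097, the genotypes with CpG and the difference of responses, and 9, 7 and 6 of the 10 were called lower with CpG in Tlr9het, in Tlr997 and with CL097. Without a filter, 0 genes were called between unstimulated genotypes, 187 with CpG and 78 for the difference, and the calls of Cd74 and Ciita with CpG in Tlr997 and of H2-Aa with CL097 were lost. Without a fold threshold, 680 genes were called between genotypes with CpG, and H2-Ab1 was called with CL097. Array quality weights gave 485 genes with CpG and 377 for the difference and lost Ciita in Tlr997. The 6 unstimulated libraries alone gave 0.

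With the replicate number as a replicate block within each genotype, 328 genes were called for the difference of responses, against 177 without it. Neither that fit nor a block common to the arm changed a call of the 10 genes, where 10, 10 and 7 were lower.

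Signs turned in uncalled differences near 0. Cd74 with CL097, at 0.00, ran from -0.0665 to 0.0665 with single libraries left out. Its values were the same with and without CL097 in each replicate number, so leaving out 1 library only unbalanced the numbers. The others were genotype differences. In unstimulated cells, H2-Oa was 0.035 with array weights. With single libraries left out, differences between unstimulated genotypes ran from -0.091 to 0.11 for H2-Eb1, from -0.17 to 0.066 for H2-DMb2, from -0.096 to 0.15 for H2-DMa and from -0.096 to 0.11 for H2-Oa. With CpG they ran from -0.025 to 0.13 for H2-Eb1, from -0.15 to 0.15 for Ciita and from -0.13 to 0.0745 for H2-Ob, and the difference of responses of H2-Eb1 ran from -0.060 to 0.15. The cause of the sign changes in genotype differences was not tested.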
